A study of Mus musculus with 12 samples.

Results

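The replication-dependent histone genes encode the linker histone H1 and the core histones H2A, H2B, H3 and H4 that package newly copied DNA. They were taken as all genes whose symbol begins with Hist1h, Hist2h, Hist3h or Hist4h, which gave 68 of the 23354 genes shared by all libraries. By the class written in the symbol there were 6 H1, 18 H2A, 19 H2B, 12 H3 and 13 H4 genes, and 1 of the H2B genes, Hist3h2bb-ps, is annotated as a pseudogene. H3f3a and H3f3b, which encode the replication-independent variant H3.3, are given beside them for scale only.

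Histone genes of this kind are transcribed mainly in S phase, and most of their messages end without a poly(A) tail. The 3' end is made by a cut just after a short stem-loop, which is bound by the stem-loop binding protein Slbp. Npat, a coactivator in histone locus bodies, drives their transcription at the G1 to S transition. The libraries were made after mRNA capture, so an untailed message is recovered only in part, and the level of a gene and the share of its messages that was captured cannot be told apart in these data. Embryonic stem cells cycle fast and spend much of the cycle in S phase.

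The cells were J1 mouse embryonic stem cells, grown as stable lines on inactivated embryonic fibroblast feeders with serum and leukemia inhibitory factor. One arm overexpressed histone H3.1, either wild type (H3.1WT, which served as control) or with methionine in place of lysine 9 (H3.1K9M) or of lysine 36 (H3.1K36M). Lines of the knockdown arm carried a hairpin against Suv39h1 or Suv39h2, the H3K9 methyltransferases of heterochromatin (shSuv39h1 and shSuv39h2), or shNC, read as the non-targeting control. Each of the 6 groups had 2 libraries, and the sources used here do not say whether they came from separate cultures or clones, so each p-value rests on the spread among these libraries alone. The sources also leave out the vectors, promoters and clone structure of the lines, and by its title the study is about H3K36me3 and sequence variation. All values are FPKM, fragments scaled to transcript length and to the mapped fragments of a library, as deposited.

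As a check of the labels, Suv39h2 stood at 1.61 and 1.76 FPKM in shSuv39h2 against 4.797 and 4.782 in shNC, a log2 change of −1.11 (SE 0.09, limma adjusted p = 0.000304). Suv39h1 had 8.58 and 7.52 FPKM in shNC and 4.91 and 5.11 FPKM in shSuv39h1, a log2 change of −0.59 (SE 0.10) that did not pass the test (limma adjusted p = 0.0877). All 15 embryonic stem cell markers of a list that included Pou5f1, Sox2 and Nanog were at or above 1 FPKM in each library. Fibroblast markers were also present, with 28 or 29 of 30 at or above 1 FPKM in each library and sums from 1215 FPKM in shSuv39h1 replicate 2 to 4120 FPKM in H3.1K9M replicate 1. Lum was the lowest of them in each library and was listed at 0 in shSuv39h1 replicate 1.

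The sequence that sets these messages apart is the hairpin near the 3' end, and it is shown for the genes described most closely below. A stem of 6 pairs around a loop of 4 bases was found in the GENCODE transcripts of 44 of the 68 genes. In some of the others, such as Hist1h3h and Hist1h4k, the annotated transcript holds the coding region only. A hairpin past that region could not be found there. The lines give the transcript strand in DNA letters, with the 16 hairpin bases in capitals.
Hist1h3c: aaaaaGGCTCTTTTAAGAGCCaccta
Hist1h3e: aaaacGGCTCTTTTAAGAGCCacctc
Hist1h2bb: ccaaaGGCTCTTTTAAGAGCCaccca
Hist1h1c: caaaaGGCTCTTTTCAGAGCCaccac
Hist1h4d: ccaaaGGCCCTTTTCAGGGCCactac
Hist1h4i: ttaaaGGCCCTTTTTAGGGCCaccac
The hairpin of Hist1h1c, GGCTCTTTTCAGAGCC, was the commonest and stood in 26 genes. That of Hist1h4d, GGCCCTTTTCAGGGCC, stood in 7 genes, and that of Hist1h3c, Hist1h3e and Hist1h2bb, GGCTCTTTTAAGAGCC, in 6.

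The annotated transcripts do not all stop at the hairpin. In 22 of the 44 genes the transcript ran at most 100 bases past it, as in Hist1h2bb with 23 bases and Hist1h3c with 74. In others it ran on, by 369 bases in Hist1h3e, 770 in Hist1h4d and 840 in Hist1h1c. A poly(A) signal, AATAAA or ATTAAA in the last 40 bases, was annotated for 17 genes, of which 13 also had a hairpin. Among those 17 genes the median of the mean level was 1.02 FPKM, and 4 had a mean of at least 10 FPKM. Among the other 51 genes the median was 1.76 FPKM, and 2 had a mean of at least 10 FPKM. These 4 genes were Hist1h1c, Hist1h4i, Hist1h4h and Hist3h2ba, and the other two were Hist1h2bc and Hist1h3c. Genes annotated with the coding region only, such as Hist1h3h and Hist1h4k, are among the 51, and no sequence past it could be searched in them. The annotation says where a transcript can end, and which end these cells used was not measured.

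The genes lie in a few clusters. On GRCm38, 54 were on chromosome 13, 10 on chromosome 3, 3 on chromosome 11 and 1 on chromosome 6. The genes on chromosome 13 formed a block of 18 at chr13:21715763-21837530, a block of 5 at chr13:22035164-22043676 and a block of 31 at chr13:23531050-23934851. Hist1h3c (chr13:23744973-23745602, minus strand) and Hist1h2bb (chr13:23746734-23747241, plus strand) are neighbours in the last of these and are transcribed away from each other.

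Histone messages were low in all libraries. The median of the 68 mean levels was 1.74 FPKM, 15 genes stayed below 1 FPKM in each library, and Hist1h2ap was listed at 0 in all 12. The filter for testing, at least 1 FPKM in at least 2 of the 12 libraries, was passed by 49 genes: 5 of H1, 10 of H2A, 15 of H2B, 10 of H3 and 9 of H4. Only 1 of these 49, Hist2h2be, reached 1 FPKM in a single group. By contrast H3f3a had a mean of 342.2 FPKM and H3f3b of 471.1 FPKM, so that the sum of these 2 H3.3 genes, 766 to 884 FPKM in the group means, exceeded the sum of all 68 histone genes, 211 to 285 FPKM. H3.3 messages carry poly(A) tails, so the capture step bears on this contrast.

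**Figure D1:**
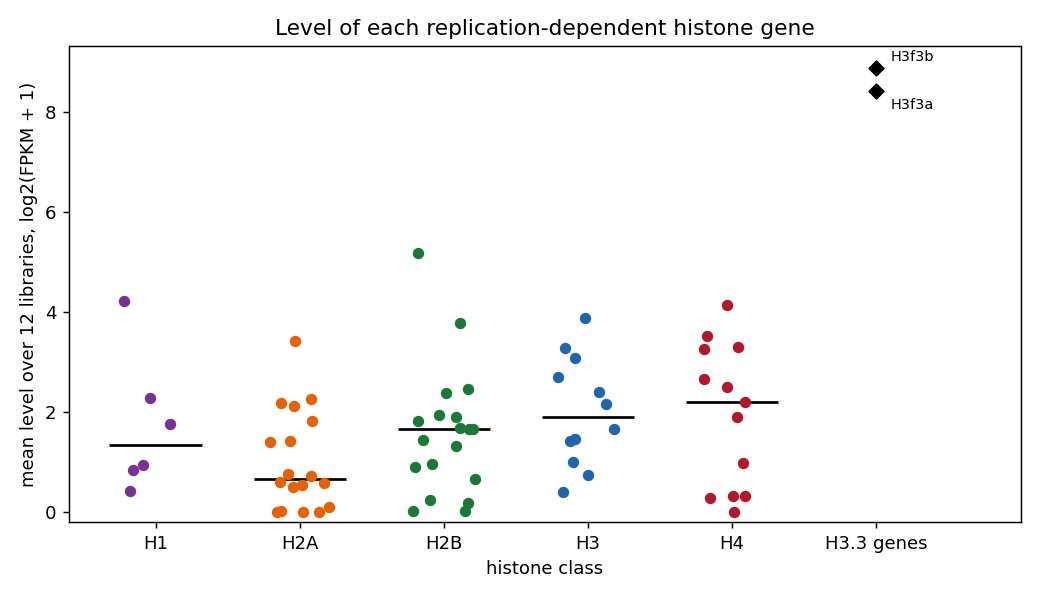
Mean level of each of the 68 histone genes over the 12 libraries, as log2(FPKM + 1), by class, with a bar at the median of each class and H3f3a and H3f3b as diamonds. Hist1h2bc, the highest H2B point, had a mean of 35.4 FPKM, and the H3.3 genes lay far above every other point.

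The linker histone H1 was carried mostly by Hist1h1c, whose product is a common somatic H1. Its level ran from 13.5 to 23.4 FPKM with a median of 17.0 over the 12 libraries. Hist1h1a followed with 2.52 to 6.38 FPKM and Hist1h1b with 1.19 to 3.32 FPKM. Hist1h1d had a mean of 0.918 FPKM, and Hist1h1t, the testis H1, stayed between 0.098 and 0.555 FPKM.

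Among the H2A genes Hist1h2ae was the highest, at 6.13 to 13.9 FPKM. Hist1h2ak, Hist1h2ag and Hist1h2an followed with means of 3.80, 3.56 and 3.34 FPKM. The 18 H2A genes encode 9 different proteins, and 9 of the genes share the same one. In the H2B class Hist1h2bc stood alone at 27.6 to 51.0 FPKM, with 2150 of 23354 genes above it by mean level. The 51.0 FPKM was in H3.1K9M replicate 1, the library with the highest fibroblast marker sum, while H3.1K9M replicate 2 had 28.6 FPKM. Hist3h2ba ranged from 8.47 to 19.2 FPKM, and Hist1h2bg and Hist1h2bl had means of 4.55 and 4.26 FPKM.

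All 13 H4 genes encode the same protein. Hist1h4i led them with 13.1 to 20.4 FPKM, followed by Hist1h4h with 6.03 to 13.99 FPKM, Hist1h4d with 3.12 to 13.99 FPKM and Hist1h4m with 6.29 to 10.8 FPKM. The reading frame of Hist1h4m is identical to that of Hist1h4n, which was listed at 0 in 11 libraries, so the split between this pair depends on how fragments were assigned. In all, 10 genes fell into 5 such pairs with identical reading frames, the others being Hist1h2ao with Hist1h2ap, Hist1h2bq with Hist1h2br, Hist2h2aa1 with Hist2h2aa2 and Hist2h3c1 with Hist2h3c2. Their levels are uncertain for this reason.

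The 12 H3 genes encode only 2 proteins. Hist1h3a, Hist1h3g, Hist1h3h and Hist1h3i encode H3.1, the form that was overexpressed. The other 8 encode H3.2, which differs by C96S, counted from the first residue after the initiator methionine. H3.3 from H3f3a and H3f3b differs from H3.1 by A31S, S87A, V89I, M90G and C96S, and all these proteins have lysine at positions 9 and 36. The sources do not say whether transcripts of the H3.1 transgenes were counted in any of these genes.

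The H3.1 genes were of middling level and close to each other. Hist1h3g had 8.01 and 9.04 FPKM in H3.1WT, 6.08 and 10.0 in H3.1K9M, 5.796 and 8.57 in H3.1K36M, 9.98 and 10.6 in shNC, 10.9 and 10.7 in shSuv39h1, and 8.78 and 6.83 in shSuv39h2. Hist1h3h, Hist1h3i and Hist1h3a had means of 5.55, 4.27 and 3.50 FPKM. The sum over these 4 genes was 21.6 ± 0.202 FPKM (SD, n = 2) in H3.1WT. The mutant lines had 19.8 ± 6.36 (H3.1K9M) and 17.9 ± 1.24 FPKM (H3.1K36M). It was 24.1 ± 0.789 FPKM in shNC, 29.6 ± 1.74 in shSuv39h1 and 19.5 ± 2.33 in shSuv39h2. In the counted H3.1 messages, the lines with an H3.1 transgene thus had group means below that of shNC, and so did shSuv39h2. No H3.1 gene passed between H3.1WT and shNC (smallest limma adjusted p = 0.692).

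The H3.2 genes were uneven. Hist1h3c was the highest H3 gene, with 15.9 and 15.1 FPKM in H3.1WT, 10.1 and 11.2 in H3.1K9M, 11.7 and 9.85 in H3.1K36M, 20.5 and 16.1 in shNC, 16.3 and 18.2 in shSuv39h1, and 11.98 and 8.51 in shSuv39h2. Hist1h3e came next, with 8.99 and 8.54 FPKM in H3.1WT, 6.06 and 6.31 in H3.1K9M, 5.56 and 5.93 in H3.1K36M, 11.1 and 10.2 in shNC, 7.05 and 8.38 in shSuv39h1, and 6.79 and 4.59 in shSuv39h2. For each of this pair of genes the values of H3.1K9M, H3.1K36M and shSuv39h2 were below those of their own control, without overlap. Of all tested genes 20.6%, 27.6% and 21.3% lay lower in this way, in the same order. H3.1K9M and H3.1K36M share the H3.1WT libraries as control. Hist1h3d, Hist1h3f and Hist2h3b had means of 2.16, 1.76 and 1.70 FPKM. Hist2h3c1 and Hist2h3c2 had 1.02 and 0.675 FPKM, and Hist1h3b had 0.325 FPKM and was listed at 0 in 3 libraries. The sum of the H3.2 genes was 31.8 ± 2.22 FPKM (SD, n = 2) in H3.1WT, 24.4 ± 2.34 in H3.1K9M, 23.6 ± 2.25 in H3.1K36M, 36.9 ± 3.66 in shNC, 33.9 ± 4.06 in shSuv39h1 and 22.8 ± 4.85 in shSuv39h2.

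**Figure D2:**
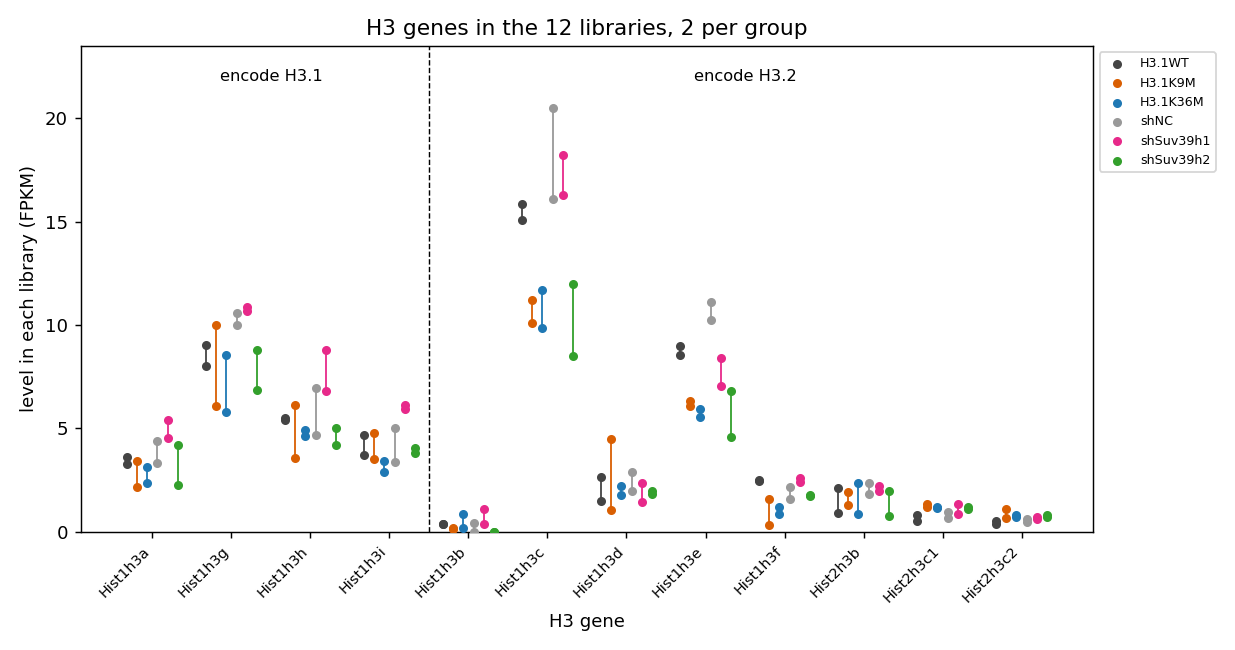
Level of each H3 gene in FPKM in every library, with the 2 libraries of a group joined by a line, H3.1-coding genes left and H3.2-coding genes right of the dashed line. Hist1h3c reached 20.5 FPKM in shNC and 8.51 FPKM in shSuv39h2, and the libraries of several groups overlapped for most other genes.

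Low values were countable in part. In 14 genes of the H2B and H4 classes that were chosen after their values were seen, all 156 values above 0 were whole multiples of 1 fragment within 0.05 of a step. The step was fitted to the same values, so this is a description with no test, and the fragment numbers are estimates. A fragment was worth about 0.170 to 0.225 FPKM in the H2B genes, with 381 coding bases, and 0.262 to 0.349 FPKM in the H4 genes, with 312. Hist1h4d at 5.76 FPKM in shSuv39h2 replicate 1 thus stood for about 20 fragments. The 7 H2B genes together held about 59 to 122 fragments per library and the 7 H4 genes 54 to 118, so single genes rest on few fragments. Libraries of a group differed more in histone genes than in genes at large: within a group, the median absolute log2 difference of its libraries was 0.227 to 0.327 for the 49 tested histone genes and 0.0586 to 0.211 for all 13109 tested genes.

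In shSuv39h2 against shNC, Hist1h3e, Hist1h3c and Hist1h4m fell and Hist2h2be rose, which is 4 of the 49 tested, where 10.0% of all tested genes were called. The share of called members was thus not above that of all genes. The direction was lopsided: 39 of 49 log2 changes were below 0, with a median of −0.27 against 0.04 over all tested genes. In 24 of 49 genes both knockdown libraries lay below both shNC libraries, where 21.3% of all tested genes did so, and 4 lay above without overlap, where 29.5% of all tested genes did. In bulk RNA, fewer cells in S phase and less histone RNA per cell cannot be told apart.

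Hist1h3e fell from 10.7 ± 0.618 to 5.69 ± 1.56 FPKM (SD, n = 2), a log2 change of −0.82 (SE 0.15, limma adjusted p = 0.00894). Hist1h3c fell from 18.3 ± 3.13 to 10.2 ± 2.45 FPKM, a log2 change of −0.79 (SE 0.16, limma adjusted p = 0.0158). These are the pair of H3.2 genes with the highest levels. The 4 H3.1 genes had a median log2 change of −0.25 and none passed. Hist1h3e and Hist1h3c were both lost with only the 2 groups fitted, and Hist1h3c also with only the knockdown arm fitted. Without shNC replicate 1 neither gene passed, with adjusted p of 0.0533 for Hist1h3e and 0.0964 for Hist1h3c (limma), and without shSuv39h2 replicate 2 Hist1h3c did not pass either, at 0.109.

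Among the H4 genes 8 of 9 changes were negative, with a median of −0.50. Hist1h4m had 10.2 and 10.8 FPKM in shNC and 6.48 and 6.29 in shSuv39h2, a log2 change of −0.64 (SE 0.15, limma adjusted p = 0.0235). Its groups did not overlap, but the call was lost when any of the 4 libraries was left out, with adjusted p from 0.0682 to 0.127. Hist1h4d had 13.3 and 9.42 FPKM in shNC and 5.76 and 4.93 in shSuv39h2, and its log2 change of −0.95 did not pass (limma adjusted p = 0.0546). Hist1h4i, the highest H4 gene, had 14.9 and 13.1 FPKM in shNC and 16.6 and 13.9 in shSuv39h2, which overlap.

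Hist2h2be, an H2B gene on chromosome 3 (chr3:96221119-96223738, plus strand) whose annotated transcript of 2620 bases ends with a poly(A) signal, went the other way. It had 0.444 and 0.413 FPKM in shNC, 0.665 and 0.518 in shSuv39h1 and 1.19 and 1.13 in shSuv39h2. It stayed between 0.383 and 0.577 FPKM in the overexpression arm, so the shSuv39h2 libraries were above the other 10. The ratio of means to shNC was 2.71 and the log2 change 0.60 (SE 0.12, limma adjusted p = 0.0124). The gene entered the test through these 2 libraries alone, and without a filter on low values it passed as well. Without shNC replicate 1 its adjusted p was 0.0533 (limma).

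The classes H1, H2A and H2B had medians of −0.25, −0.21 and −0.29 in this comparison, and Hist2h2be was the only gene of theirs that passed. All 5 tested H1 genes had negative changes, none past the test, and Hist1h1c had 13.5 and 17.6 FPKM in shNC and 14.9 and 15.3 in shSuv39h2. Hist1h2ak had 3.82 and 5.73 FPKM in shNC and 2.64 and 1.66 in shSuv39h2 (log2 −0.87, limma adjusted p = 0.0797). Hist1h2bc overlapped, with 27.6 and 34.3 FPKM in shNC and 38.1 and 32.4 in shSuv39h2. Genes with an annotated poly(A) signal, Hist2h2be among them, had a median change of −0.04 (12 genes) and those without one of −0.31 (37 genes). The same search found no signal in H3f3b, whose messages carry tails, so it does not separate tailed from untailed messages. Summed over all 68 genes, shNC had 269.4 and 262 FPKM and shSuv39h2 had 227.9 and 194.9 FPKM.

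Fibroblast marker sums overlapped between these groups, at 1737 and 2286 FPKM in shNC and 2376 and 1882 in shSuv39h2. Of 29 tested markers 2, Thy1 and Mmp2, fell and none rose past the test, where 10.0% of all tested genes were called. The list median was 0.07. With the mean level of these markers as a covariate, Hist1h3e, Hist1h3c, Hist1h4m and Hist2h2be still passed, among 6 histone genes in all, where 17.0% of all tested genes were called with that covariate.

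Among the genes that make and process histone messages, Slbp had in the same comparison 62.0 and 70.3 FPKM in shNC and 69.1 and 76.0 in shSuv39h2, and Npat had 7.71 and 6.78 against 7.61 and 7.28, so that both overlapped. Of 23 genes for histone mRNA synthesis and 3' processing 2 rose and none fell, where 10.0% of all tested genes were called. These were Cstf2t, a paralog of the cleavage stimulation factor subunit Cstf2 (log2 0.75, limma adjusted p = 0.00309), and Pou2f1, the octamer-binding Oct1 (log2 0.38, limma adjusted p = 0.0191). Of 40 S phase and DNA replication genes 4 rose and none fell, with a list median of 0.18. These were Pola2 and Pola1, subunits of DNA polymerase alpha, Rrm2 of ribonucleotide reductase and the flap endonuclease Fen1, with log2 changes of 0.88, 0.59, 0.46 and 0.62. Of 11 tested histone variant genes outside the group 1 rose, H2afy for macroH2A (log2 0.48, limma adjusted p = 0.0235). Of 25 histone chaperone and import genes 2 rose, Daxx and Ubn2, which act in H3.3 deposition (log2 0.42 and 0.32). Of 15 stem cell markers 4 rose, Klf4, Klf2, Pou5f1 and Utf1, and none fell, with a list median of 0.17. H3f3a had a log2 change of 0.22 and H3f3b of −0.29, and neither passed.

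In shSuv39h1 against shNC no histone gene passed (limma), where 0.145% of all tested genes were called, and 6 of 49 had an unadjusted p under 0.05, where 10.6% of all tested genes did. The smallest adjusted p was 0.32. The median log2 change was 0.09 against 0.04 over all genes, and 13 of 49 lay above shNC without overlap, where 26.8% of all tested genes did so. The median was 0.0273 with the fibroblast marker mean as a covariate, 0.0311 without shSuv39h1 replicate 2 and 0.0468 without shNC replicate 1, against 0.0459, 0.0355 and 0.0325 over all genes. The 4 H3.1 genes had positive changes with a median of 0.35, as in Hist1h3i with 3.38 and 5.00 FPKM in shNC and 6.13 and 5.92 in shSuv39h1 (limma adjusted p = 0.392). Hist1h3e was lower in both libraries than in shNC, with a log2 change of −0.42 (limma adjusted p = 0.344). None of the genes of the synthesis and processing, variant, chaperone or S phase lists passed here, and none of the fibroblast or stem cell markers did.

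The comparison of shSuv39h2 with shSuv39h1 tests directly whether the knockdowns differ. Hist1h4d, Hist1h2bb and Hist1h3c were lower in shSuv39h2, which is 3 of 49 genes, and 6.56% of all tested genes were called. The median change over the 49 genes was −0.39 against 0.00 over all tested genes, and 38 of 49 were negative. In 26 of 49 both shSuv39h2 libraries were below both shSuv39h1 libraries, where 30.0% of all tested genes were. The comparisons of each knockdown with shNC share those control libraries, so only this direct one is read as a difference between them.

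Hist1h4d had 12.2 and 13.99 FPKM in shSuv39h1, or about 39 and 43 fragments, and 5.76 and 4.93 FPKM in shSuv39h2, or about 20 and 18 fragments. Its log2 change was −1.15 (SE 0.27, limma adjusted p = 0.0357). Hist1h2bb had 2.39 and 4.35 FPKM in shSuv39h1 and 1.29 and 1.09 in shSuv39h2, a log2 change of −0.96 (SE 0.23, limma adjusted p = 0.0389). Its shSuv39h1 values differed widely from each other, and shNC lay between the groups with 1.70 and 2.04 FPKM. Hist1h3c had a log2 change of −0.72 (SE 0.16, limma adjusted p = 0.0327). All these calls were lost without a filter on low values. These calls rest on single libraries: Hist1h4d was lost when any of the 4 was left out (adjusted p 0.134 to 0.203), Hist1h3c without shSuv39h1 replicate 1 or 2 or shSuv39h2 replicate 2 (0.134, 0.202 and 0.187), and Hist1h2bb without shSuv39h1 replicate 2 or shSuv39h2 replicate 1 or 2 (0.248, 0.143 and 0.185).

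All 4 H3.1 genes were lower in shSuv39h2 than in shSuv39h1 without overlap, where 30.0% of all tested genes were. Their median change was −0.53, and none passed. Fibroblast marker sums were 1833 and 1215 FPKM in shSuv39h1 and 2376 and 1882 in shSuv39h2, with no marker past the test and a list median of 0.46. With the marker mean as a covariate the log2 changes were −1.01 for Hist1h4d and −0.93 for Hist1h2bb, with adjusted p of 0.0539 and 0.0524 (limma), and Hist1h3c still passed. The median over the 49 genes was then −0.255, against −0.0115 over all genes. Cstf2t rose (log2 0.55) and Cstf3, another cleavage stimulation factor subunit, fell (log2 −0.54) among the 23 synthesis and processing genes, and Pola2 rose (log2 0.79) among the 40 S phase genes.

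**Figure D3:**
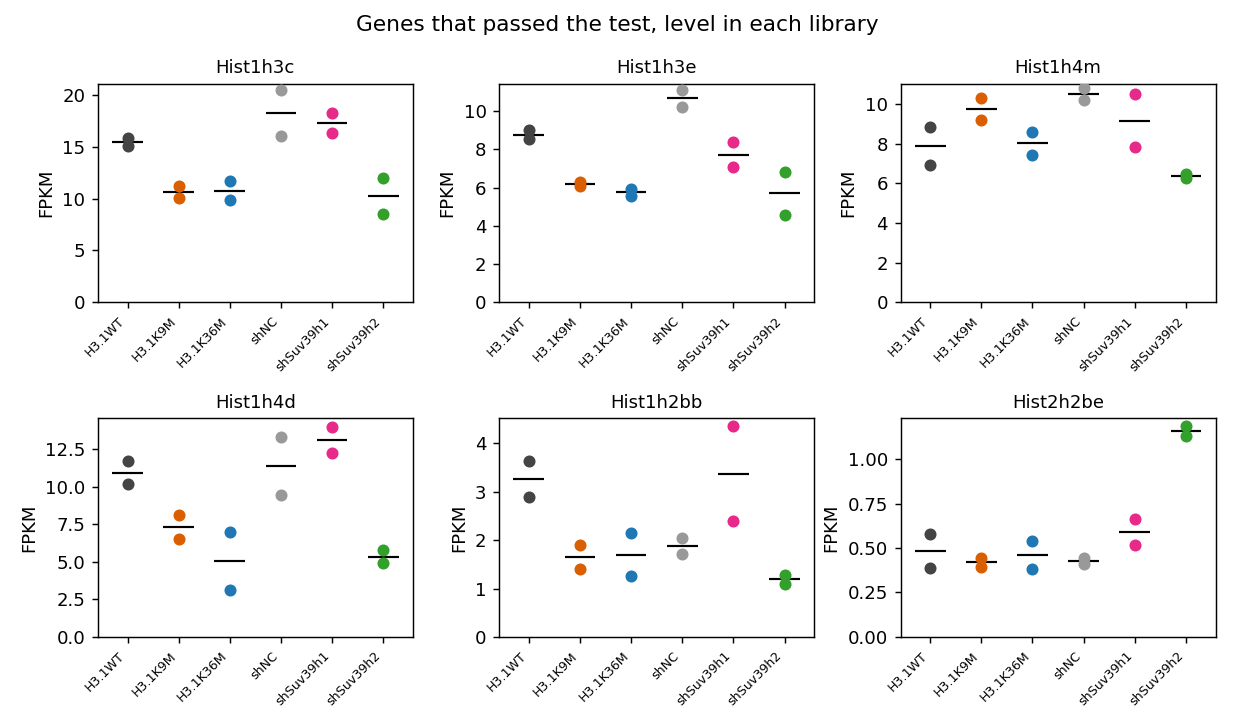
Level in FPKM of the 6 histone genes that passed the test in a comparison within the knockdown arm, with a point for each library and a bar at each group mean, and each vertical axis starting at 0. Hist1h3c, Hist1h3e, Hist1h4m and Hist1h4d were lower in both shSuv39h2 libraries than in both shNC libraries, and Hist2h2be was at 1.19 and 1.13 FPKM in shSuv39h2.

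In the overexpression arm no histone gene passed against H3.1WT (limma), although most values lay lower. In H3.1K36M, where 4.84% of all tested genes were called, 36 of 49 log2 changes were negative with a median of −0.23, against 0.03 over all genes. In 24 of 49 genes both libraries were below both H3.1WT libraries, where 27.6% of all tested genes were. An unadjusted p under 0.05 was reached by 13 of 49 and by 20.8% of all tested genes. The smallest adjusted p was that of Hist1h4d, which had 11.7 and 10.1 FPKM in H3.1WT and 6.95 and 3.12 in H3.1K36M (log2 −1.05, SE 0.27, limma adjusted p = 0.0579). Hist1h3e had a log2 change of −0.53 (limma adjusted p = 0.0731) and Hist1h3c of −0.49 (limma adjusted p = 0.124). Hist1h1c lay higher, at 23.4 and 22.6 FPKM against 15.8 and 20.3 in H3.1WT (log2 0.34, limma adjusted p = 0.232). With array quality weights 9 of 49 histone genes passed, 2 of them higher in H3.1K36M, where 22.8% of all tested genes were called. With only these 2 groups fitted 7 passed, where 13.6% of all tested genes were called, and without H3.1K36M replicate 1, 1 passed, where 0.445% were. The median over the histone genes was −0.146 without H3.1WT replicate 1 and −0.103 over 67 genes without a filter.

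In H3.1K9M, where 0.313% of all tested genes were called, no histone gene passed (limma) and 8 of 49 had an unadjusted p under 0.05, where 11.2% of all tested genes did. The median log2 change was −0.21 against −0.01 over all genes, with 37 of 49 negative. Values were below H3.1WT without overlap in 16 of 49 genes, where 20.6% of all tested genes were. The smallest adjusted p was that of Hist1h3f, which had 2.45 and 2.51 FPKM in H3.1WT and 1.57 and 0.321 in H3.1K9M (log2 −0.92, SE 0.25, limma adjusted p = 0.243). Hist1h3c and Hist1h3e had log2 changes of −0.50 and −0.44 (limma adjusted p = 0.309 and 0.315). Without H3.1K9M replicate 1, the library rich in fibroblast markers, 1 histone gene passed, where 0.153% of all tested genes were called, and the median was −0.124. Without a filter the median was −0.0958 over 67 genes. The comparisons of H3.1K9M and of H3.1K36M share the H3.1WT libraries.

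In the direct comparison of H3.1K36M with H3.1K9M no histone gene passed (limma), where 8.24% of all tested genes were called. An unadjusted p under 0.05 was reached by 2 of 49 and by 23.2% of all tested genes. The median change was −0.06, with 28 of 49 negative. Without H3.1K9M replicate 1 the median was −0.116 and 2 histone genes passed, and without H3.1K9M replicate 2, 1 did, where 10.9% and 10.7% of all tested genes were called. Summed over all 68 genes, H3.1WT had 263 ± 13.5 FPKM (SD, n = 2), H3.1K9M 232.6 ± 0.762 and H3.1K36M 223.8 ± 5.15.

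Fibroblast markers differed in the same arm, and their part in these values was not tested beyond a covariate. Marker sums in H3.1WT were 1448 and 2323 FPKM. They were 4120 and 2132 FPKM in H3.1K9M and 2891 and 2802 FPKM in H3.1K36M. Of 29 tested markers 3 rose in H3.1K36M against H3.1WT, Postn, Col6a2 and Col3a1, and none passed in H3.1K9M, with list medians of 0.75 and 0.70. With the marker mean as a covariate, 2 histone genes passed in H3.1K36M against H3.1WT and 1 in H3.1K36M against H3.1K9M, where 4.21% and 14.9% of all tested genes were called. The median over the 49 genes in H3.1K36M against H3.1WT was then −0.0842, against 0.0239 over all genes. No gene of the synthesis and processing, variant, chaperone or S phase lists passed against H3.1WT in either line. Mcm4 of the replicative helicase (log2 0.35) and Cdan1, a regulator of the chaperone Asf1 (log2 0.36), were higher in H3.1K36M than in H3.1K9M. Of 15 stem cell markers 3 were higher in H3.1K36M than in H3.1WT and 6 higher than in H3.1K9M, with Nanog among both, and none fell. Over all tested genes 4.84% and 8.24% were called in these comparisons. The list medians were 0.09 and 0.31.

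**Figure D4:**
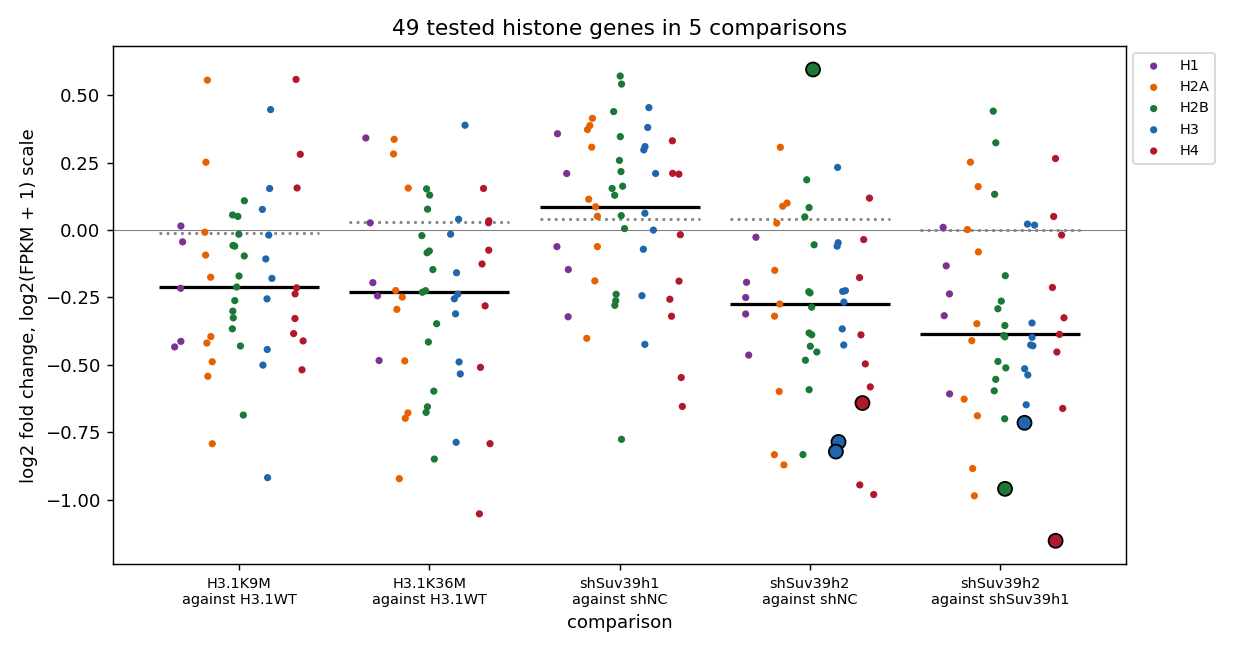
Log2 change of each of the 49 tested histone genes, coloured by class, in 5 comparisons, with a solid bar at their median, a dotted bar at the median of all tested genes and large outlined points for genes that passed. The solid bars lie at −0.21, −0.23, 0.09, −0.27 and −0.39.

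The control lines of the arms were compared as background. In H3.1WT against shNC, where 0.336% of all tested genes were called, no histone gene passed (limma) and 4 of 49 had an unadjusted p under 0.05, where 11.4% of all tested genes did. The median change was −0.06, and 0.0425 without H3.1WT replicate 2. Slbp and Npat overlapped between these controls, and no gene of the 6 lists passed.

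The promoters are shown for Hist1h3c, Hist1h3e and Hist1h4d, so that their letters can be compared. These genes are among those that passed in a comparison and were lower in shSuv39h2. Hist1h3c passed against shNC and against shSuv39h1, Hist1h3e only against shNC and Hist1h4d only against shSuv39h1. Hist1h4m and Hist1h2bb also passed and were lower, and are not shown. RefSeq start sites on GRCm38.p6 were matched for 62 of the 68 genes, with 63 windows of 300 bases from 250 before to 50 after the start. The 250 bases before the start are printed 5' to 3' on the gene's strand, and capitals mark CCAAT and TATAAA on either strand.
Hist1h3c, chr13:23745522-23745771, minus strand: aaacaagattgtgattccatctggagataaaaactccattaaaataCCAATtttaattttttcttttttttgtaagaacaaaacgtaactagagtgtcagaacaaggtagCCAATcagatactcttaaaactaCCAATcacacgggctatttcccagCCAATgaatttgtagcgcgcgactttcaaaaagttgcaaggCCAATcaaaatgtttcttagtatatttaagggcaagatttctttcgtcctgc
Hist1h3e, chr13:23562386-23562635, minus strand: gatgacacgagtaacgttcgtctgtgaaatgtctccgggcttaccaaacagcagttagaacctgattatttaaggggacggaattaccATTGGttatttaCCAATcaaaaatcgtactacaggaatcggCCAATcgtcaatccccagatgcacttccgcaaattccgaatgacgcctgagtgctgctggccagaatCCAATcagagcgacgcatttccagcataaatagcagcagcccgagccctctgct
Hist1h4d, chr13:23581318-23581567, plus strand: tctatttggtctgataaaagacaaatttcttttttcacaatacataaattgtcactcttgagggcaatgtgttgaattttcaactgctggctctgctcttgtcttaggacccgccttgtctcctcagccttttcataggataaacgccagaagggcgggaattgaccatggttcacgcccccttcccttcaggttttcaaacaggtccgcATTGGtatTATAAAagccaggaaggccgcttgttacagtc
Hist1h3c holds 5 CCAAT matches and no TATAAA, Hist1h3e 4 CCAAT matches and no TATAAA, and Hist1h4d 1 of each.

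Across the 63 windows CCAAT, the core of the NF-Y site, was found on either strand in 85.7%, against 37.4% of all RefSeq promoter windows of that length. It was in every H1, H2A, H2B and H3 window and in 3 of 12 H4 windows (25%). TATAAA was in 55.6% of the windows and in 13.6% of all promoters. The octamer ATTTGCAT, the site of Oct1 and Oct4, was in 7 of 18 H2A and 7 of 17 H2B windows and in no H1, H3 or H4 window, against 1.74% of all promoters. Windows of neighbouring genes that are transcribed away from each other can overlap and then share a match. These matches describe the letters in the windows only.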

How the data were processed

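mRNA of 12 libraries in 6 groups of 2 was analysed, with groups taken from the titles in the labels. The authors deposited 1 FPKM value for each gene symbol and library, and the unit was inferred from the values. Cuffdiff 2.2.1, TopHat2 2.0.13 and the build mm10 are named in the submitters' processing notes. Tool settings and the annotation used: not given in the sources used here. Per the labels' protocols RNA was Trizol-extracted and mRNA was captured, with both the NEBNext Ultra and TruSeq v2 kits named. FPKM divides fragments between near-identical genes by model. Total depth is unknown, and each library had 12126 to 12518 genes at or above 1 FPKM.

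From these values log2(FPKM + 1) was tested with limma 3.58.1 in R 4.3.3 (two-sided, intensity trend, 6 group means, 6 residual and 3.66 prior degrees of freedom, no replicate block). The 13109 genes that reached 1 FPKM in at least 2 libraries entered, p-values were adjusted by Benjamini-Hochberg over all of them in each of 7 comparisons, and 0.05 was the threshold. Fold changes on this scale understate changes of low genes, and standard errors (SE) are from the fit. The fit was tested on simulated data with planted changes. Genes named were every histone gene that passed, the 4 highest of each class, all H3 genes, and list genes that passed (up to 4 with the smallest p per comparison). The members and the lists (histone mRNA synthesis and 3' processing, histone variants, chaperones and import, S phase and DNA replication, fibroblast feeder markers, embryonic stem cell markers) were chosen with earlier results of these data known. Positions and transcripts are from GENCODE on GRCm38 and promoters from RefSeq on GRCm38.p6. Alternatives were a pseudocount of 0.1, a filter of 5 FPKM or none, median-of-ratios scaling, quantile normalization, a replicate block, array quality weights, the feeder marker mean as a covariate, fits over fewer groups and leaving out each library.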

Additional observations from a re-analysis of the deposited data

Results flagged for a closer look

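A difference between the knockdowns, tested directly as shSuv39h2 against shSuv39h1, was found for 3 of 49 histone genes, where 6.56% of all tested genes were called. The log2 difference was −0.96 for Hist1h2bb, −0.72 for Hist1h3c and −1.15 for Hist1h4d, with limma adjusted p of 0.0389, 0.0327 and 0.0357. All 3 calls were lost without a filter on low values. Hist1h2bb was also lost with quantile normalization, a replicate block, the feeder marker covariate or only the same arm fitted. Hist1h3c was also lost with only the same arm, and Hist1h4d with the feeder marker covariate. Each of the 3 calls was lost as well without shSuv39h1 replicate 2 or without shSuv39h2 replicate 2.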

How the results depend on the processing

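No log2 change of a called histone gene reversed under any alternative run. Counts of the 49 histone genes that passed moved as follows (limma). In shSuv39h2 against shNC, 4 passed, 2 with array quality weights and 0 with only the 2 groups fitted, and 0 to 5 when a library was left out. In shSuv39h2 against shSuv39h1, 3 passed, all lower in shSuv39h2. Without a filter 67 histone genes were tested and 1 passed, which was higher in shSuv39h2 and not among these 3. With array quality weights 9 passed, 1 of them higher, with only the same arm 1 and with only the 2 groups 8. Calls were also lost when a library of either group was left out. In H3.1K36M against H3.1WT, 0 passed. With quantile normalization 1 passed, with array quality weights 9, with the feeder marker covariate 2 and with only the 2 groups 7. Over all tested genes 4.50%, 22.8%, 4.21% and 13.6% were called in these fits, in the same order. Calls also changed when a library was left out. In H3.1K36M against H3.1K9M, 0 passed and 1 with the feeder marker covariate, where 8.24% and 14.9% of all tested genes were called. The count moved as well when a library was left out. In H3.1K9M against H3.1WT, 0 passed and 0 to 1 when a library was left out. The cause was not tested, and a left-out library leaves its group with a lone library that is assumed to vary like the others. Under median-of-ratios scaling some summed levels moved by more than the SD between libraries. Among the classes these were H1 in H3.1WT (28.2 FPKM), H2B in shSuv39h1 (83.6), H4 in H3.1K9M (60.2) and H4 in H3.1K36M (53.2). The sum of all 68 genes in H3.1K9M (236 FPKM) and that of H3f3a and H3f3b in H3.1K36M (756.8 FPKM) also moved by more.

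The replicate numbers were not used to pair the libraries. Deviations of same-numbered libraries correlated between −0.384 and 0.517, which does not settle whether some of them were handled together. With a replicate block, 4 histone genes passed in shSuv39h2 against shNC and 2, Hist1h3c and Hist1h4d, in shSuv39h2 against shSuv39h1. Over all tested genes 10.1% and 6.50% were called in these fits.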
